A study of Homo sapiens with 2 samples.

Results

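Pericellular proteolysis was followed through 9 genes: PLAU, PLAT and PLAUR of the plasminogen activation system, the matrix metalloprotease genes MMP1, MMP3 and MMP14, and the genes TIMP1, TIMP2 and TIMP3 of their tissue inhibitors. They were taken by symbol, which a GRCh37 annotation paired with Ensembl identifiers, and all 9 were found among the 63677 gene IDs of the count tables. RNA was sequenced in MDA-MB-231, an established human triple-negative breast cancer line with mesenchymal features. One library came from control cells. The other came from cells exposed to CCE, an extract of the plant Carpesium cernuum, at 1 µg/mL for 24 h. Both groups are the same line and carry no other alteration in the labels, but the protocol field describes this exposure for both samples. Groups therefore rest on the treatment characteristic alone, and the labels do not describe the handling of the control cells any further. Each group had a single library, so differences could not be checked against replicates and no test was run. Intervals below are 95% counting intervals, which leave out the spread between cultures.

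Urokinase (uPA, from PLAU) and tissue plasminogen activator (tPA, from PLAT) cut plasminogen into plasmin, a broad protease that degrades fibrin and matrix proteins and activates several metalloprotease precursors. The receptor uPAR, from PLAUR, holds uPA at the cell surface, and inhibitors of the serpin family block the activators. Matrix metalloproteases (MMPs) are zinc enzymes that cleave collagens and other matrix proteins; TIMPs block their active site, and TIMP2 together with the membrane enzyme MT1-MMP (from MMP14) also takes part in activating the MMP2 precursor. Invasive breast cancer lines such as this one are known for abundant uPA and uPAR.

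Promoter sequences are shown for uPA and its receptor, a ligand and receptor pair whose CCE to control ratios differ below. Of the 9 genes, 5 (PLAU, PLAUR, MMP14, TIMP1 and TIMP3) were found in the RefSeq promoter table, with 6 promoters of 300 bases, from 250 before to 50 after a start site; PLAT, MMP1, MMP3 and TIMP2 were not. Coordinates of these promoters are GRCh38.p14, whereas all gene coordinates in the text are GRCh37. Capitals mark the letters TGANTCA, the AP-1 motif bound by FOS and JUN proteins, or TGACNNNGC, the core of the antioxidant response element, each searched on both strands. PLAU has 2 annotated starts, with promoters at chr10:73910360-73910659 and chr10:73910882-73911181 (plus strand), and PLAUR has 1, with its promoter at chr19:43670120-43670419 (minus strand).
PLAU upstream start: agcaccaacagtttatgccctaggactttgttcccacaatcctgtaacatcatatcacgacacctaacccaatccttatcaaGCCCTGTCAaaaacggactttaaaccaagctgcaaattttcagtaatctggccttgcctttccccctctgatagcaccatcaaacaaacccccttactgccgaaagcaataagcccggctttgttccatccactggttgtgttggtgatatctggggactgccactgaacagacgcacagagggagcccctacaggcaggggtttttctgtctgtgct
PLAU downstream start: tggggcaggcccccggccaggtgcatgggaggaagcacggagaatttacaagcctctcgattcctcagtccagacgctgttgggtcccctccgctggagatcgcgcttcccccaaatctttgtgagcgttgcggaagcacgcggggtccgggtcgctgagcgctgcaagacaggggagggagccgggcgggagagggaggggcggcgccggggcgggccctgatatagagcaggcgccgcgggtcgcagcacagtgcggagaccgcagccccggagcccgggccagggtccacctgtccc
PLAUR: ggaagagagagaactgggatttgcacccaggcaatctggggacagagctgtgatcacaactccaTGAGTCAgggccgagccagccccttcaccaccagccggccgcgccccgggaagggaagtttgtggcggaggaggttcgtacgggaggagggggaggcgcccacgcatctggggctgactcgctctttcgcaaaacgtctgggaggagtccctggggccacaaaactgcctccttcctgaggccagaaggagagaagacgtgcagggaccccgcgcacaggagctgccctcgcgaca

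The PLAUR promoter held 1 match to the AP-1 letters, beginning 186 bases before the start, and the upstream PLAU promoter held 1 match to the antioxidant response core on the opposite strand, beginning 168 bases before the start. The downstream PLAU promoter and those of MMP14, TIMP1 and TIMP3 held neither. Over all 35116 promoters of the same length in the table, 7.71% held the AP-1 letters and 13.3% the antioxidant response core. GC content was 48.7% and 70.0% in the upstream and downstream PLAU promoters and 64.0% in that of PLAUR, against a median of 58.7% over all promoters. A match is a description of the letters in this window.

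By counts, the plasminogen activators were the lowest of the 8 measured genes relative to control; by FPKM, the authors' length-scaled values, PLAUR was the lowest. PLAU and PLAT were each about 2-fold lower in the CCE library, TIMP2 and MMP1 about 1.5-fold lower, PLAUR, MMP14 and TIMP1 within 1.1-fold, and TIMP3 1.28-fold higher. A gene counted as measured when its mean reached 1 CPM (scaled counts per 1000000), and as 2-fold lower or higher when its ratio passed 2-fold with an interval that excluded no difference. By this rule 8 of the 9 genes were measured, all but MMP3. Of these 8, 2 were at least 2-fold lower, where 4.33% of 11637 measured protein-coding genes were, and 0 were at least 2-fold higher, against 3.26%. At a threshold of 1.5-fold, 4 of 8 were lower and 0 higher, against 10.9% and 11.5% of protein-coding genes. The median log2 ratio was -0.38 over the 8 genes and 0.05 over all measured protein-coding genes. The genes were not drawn at random, so these counts describe the set and carry no p-value. In RNA from whole cultures, fewer cells that express a gene and less RNA per cell cannot be told apart.

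**Figure D1:**
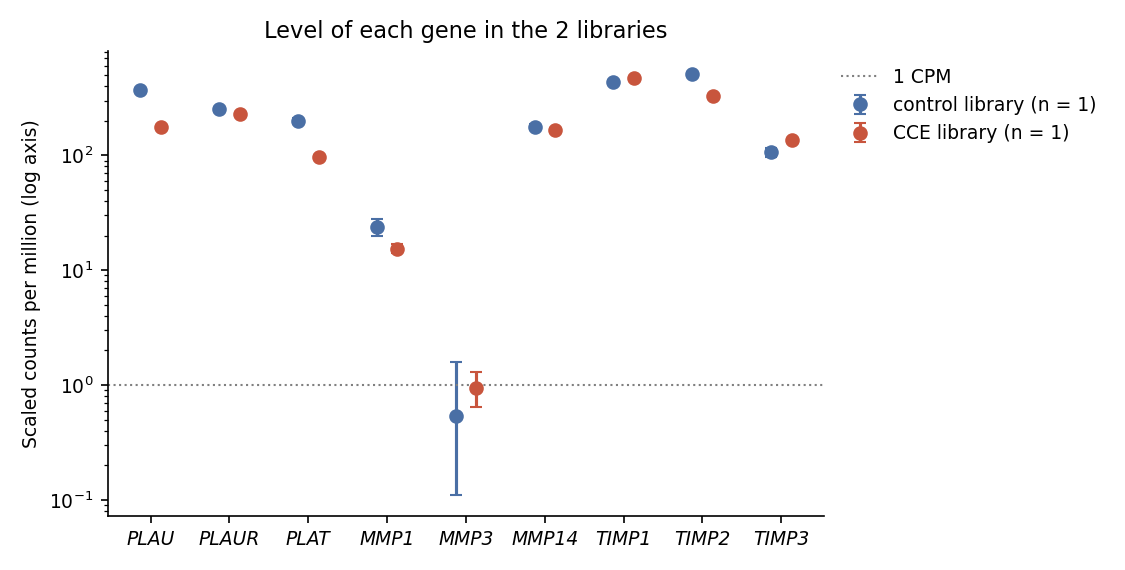
Level of each of the 9 genes in the control library (blue) and the CCE library (red), in scaled counts per 1000000 (CPM) on a log axis; bars are exact 95% Poisson counting intervals, and the dotted line is 1 CPM. PLAU, PLAT, MMP1 and TIMP2 lie lower in the CCE library, TIMP3 higher, and MMP3 near the level of single counts in both.

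Counts on genes summed to 5633569 for control and 34884501 for CCE, a 6.19-fold difference in depth, so that 1 count stood for 0.180 CPM and 0.0283 CPM. The 8 genes fixed as markers of the line ranged from 79.1 to 3739 CPM under control conditions and from 104 to 1801 CPM under CCE. Of the 8 genes expected to be low, ESR1 and FOXA1 were at 0 in both libraries and CDH1 and PGR at 0 under control conditions and at 1 and 6 counts under CCE, while KRT8 stood at 175 and 129 CPM and ERBB2 at 55.4 and 51.8 CPM. The summed level of 8 fibroblast markers was 3.06 and 1.87 CPM, that of 8 leukocyte markers 2.34 and 1.13 CPM and that of 5 endothelial markers 2.52 and 1.39 CPM, with DCN, COL1A2 and VWF at 0 in the control. Of the 8 line markers, 7 had a log2 ratio below 0, where 45.6% of measured protein-coding genes did. Among these 7 were the mesenchymal filament gene VIM at -1.05 (-1.08 to -1.03), AXL at -0.95 and CAV1 at -1.10. The part of this shift in the results below was not tested.

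PLAU (ENSG00000122861; chromosome 10, 75668935 to 75677254, plus strand) encodes urokinase. It had 2060 control counts and 6250 CCE counts, which is 370 CPM (355 to 387) against 177 CPM (172 to 181). The level in the CCE library was 2.10 times lower, at a log2 ratio of -1.07 (-1.14 to -0.99), at percentile 3.78 of the ratios of measured protein-coding genes. The 2 counting intervals of the level do not overlap. PLAU shares 915 exon bases, 31.0% of its exon length, with C10orf55, a noncoding gene on the opposite strand listed with 336 and 937 counts (log2 ratio -1.19). The sources used here do not give whether strand was used in counting.

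PLAT (ENSG00000104368; chromosome 8, 42032236 to 42065227, minus strand), the gene of tPA, had 1107 and 3455 counts. Its control level was 199 CPM (188 to 211) and its CCE level 97.8 CPM (94.5 to 101), 2.04 times lower (log2 ratio -1.03, -1.12 to -0.93). The ratio lay close to the 2-fold line: scaled by total counts alone, PLAT had -0.99 and was no longer called. The intervals of the PLAU and PLAT ratios overlap, so the sizes of the 2 differences could not be told apart.

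PLAUR (ENSG00000011422; chromosome 19, 44150247 to 44174699, minus strand), whose promoter with the AP-1 letters is printed above, encodes the uPA receptor. It had 1403 and 8138 counts, or 252 CPM (239 to 266) for control and 230 CPM (225 to 235) for CCE. The log2 ratio of -0.13 (-0.21 to -0.05) is a 1.10-fold lower level, with counting intervals of the level that do not overlap, at percentile 35.1 of measured protein-coding genes. The ratio of PLAU to PLAUR per kilobase of exon was 2.22 (2.07 to 2.38) for control and 1.16 (1.12 to 1.20) for CCE. That is 1.91 times lower (1.77 to 2.06), a value that does not depend on how the libraries are scaled but does depend on the measure. By FPKM the same ratio was 0.810 for control and 0.956 for CCE, the opposite direction. PLAUR differed more by FPKM than by counts: 134 for control and 56.5 for CCE, a difference of -1.23 on the log2(FPKM + 1) scale, larger than that of PLAU on the same scale (-0.99).

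The serpins that oppose the activators went in both directions. SERPINB2, which encodes PAI-2, had 64 and 125 counts and was 3.25 times lower (-1.70, -2.15 to -1.24).

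The protease nexin gene SERPINE2, whose product also inhibits urokinase, had a log2 ratio of 0.32 (0.12 to 0.53), with 217 and 1722 counts, and -0.05 by log2(FPKM + 1). SERPINB8 had 0.38 (0.16 to 0.61), and the neuroserpin gene SERPINI1 had 0.47 (-0.11 to 1.10), an interval that includes 0. Per kilobase of exon, the ratio of PLAU to SERPINE2 was 28.8 for control and 11.02 for CCE, 2.62 times lower (2.25 to 3.05). By FPKM the same ratio was 6.32 for control and 3.27 for CCE, so its direction held but its size depends on the measure. Of the 6 serpins in the list, 4 were measured, with a median of 0.35; 1 was at least 2-fold lower and 0 higher.

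Genes listed for plasminogen binding and for clearance of the activators went in both directions. The list also holds coagulation genes, of which THBD (-0.72) and F12 (0.06) are counted among the 10 measured below. Of 13 listed, 10 were measured, with 6 ratios below 0, where 45.6% of measured protein-coding genes were. The median was -0.27, against 0.05 over those genes. Of the 10, 0 were at least 2-fold higher and 1 was at least 2-fold lower, against 3.26% and 4.33% of those genes. The one was LRP1, an endocytic receptor that clears uPA bound to its inhibitors, with 144 and 353 counts and a log2 ratio of -1.37 (-1.66 to -1.08). The surface plasminogen binders had -0.43 (ANXA2), -0.49 (S100A10) and -0.10 (ENO1). By log2(FPKM + 1) S100A10 and ENO1 had -5.22 and -6.64, while their counts were 1891 and 8562, and 8999 and 53246. PLG itself, which encodes plasminogen, was listed at 0 counts in both libraries.

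**Figure D2:**
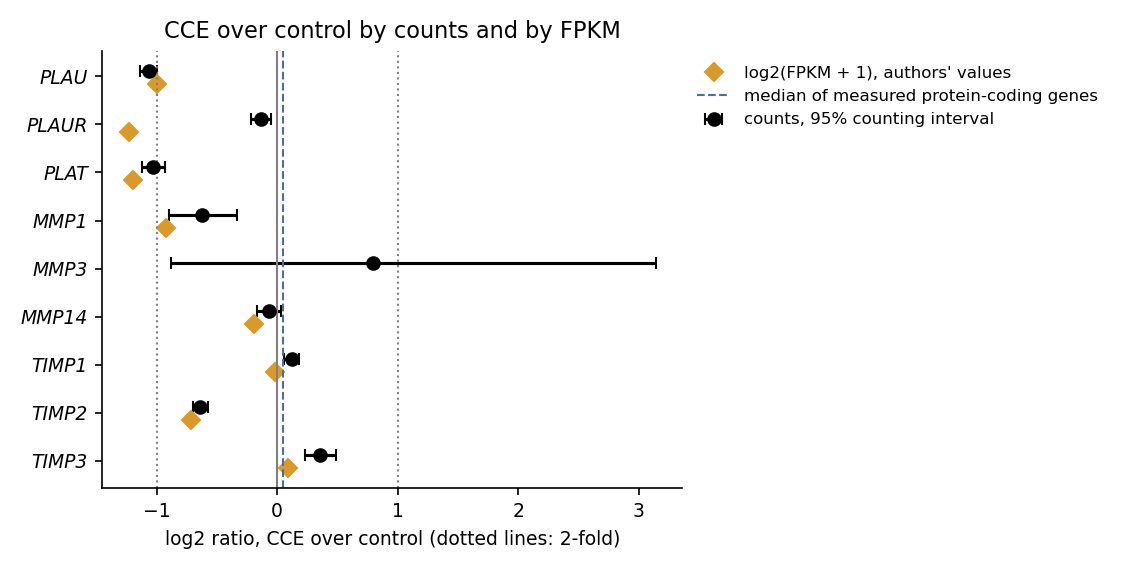
Log2 ratio of the CCE over the control library for each gene, by scaled counts with 95% counting intervals (black) and by the authors' FPKM with a pseudocount of 1 (orange diamonds, none for MMP3, which was at 0 FPKM in both); dotted lines mark 2-fold and the dashed line the median of measured protein-coding genes. PLAU and PLAT sit at -1.07 and -1.03 by counts and at -0.99 and -1.20 by FPKM, while PLAUR sits at -0.13 by counts and -1.23 by FPKM.

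Among the metalloproteases MMP14 was the most abundant member and was nearly level. MMP14 (ENSG00000157227; chromosome 14, 23305769 to 23318250, plus strand) had 977 and 5934 counts. Its control level was 176 CPM (165 to 187) and its CCE level 168 CPM (164 to 172). The intervals overlap, and the log2 ratio of -0.07 (-0.16 to 0.03) places the CCE level between 0.893 and 1.02 of the control level, as far as counting error goes.

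MMP1 (ENSG00000196611; chromosome 11, 102660132 to 102668891, minus strand) encodes interstitial collagenase, which cuts fibrillar collagens. It had 132 and 545 counts, 23.7 CPM (19.9 to 28.2) and 15.4 CPM (14.2 to 16.8). The CCE level was 1.54 times lower (log2 ratio -0.62, -0.90 to -0.34), and the intervals of the level do not overlap. By FPKM MMP1 had 11.5 and 5.63, or -0.92 on the log2(FPKM + 1) scale.

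MMP3 (ENSG00000149968; chromosome 11, 102706532 to 102714340, minus strand) encodes stromelysin 1, which can activate MMP1. With 3 control counts and 33 CCE counts it stood at 0.540 CPM (0.111 to 1.58) and 0.934 CPM (0.643 to 1.31). The ratio of 1.73 has a counting interval from 0.543 to 8.82, so no direction was detectable at this depth.

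MMP1 and MMP3 lie in a cluster of 9 MMP genes on chromosome 11, in the order MMP7, MMP20, MMP27, MMP8, MMP10, MMP1, MMP3, MMP12 and MMP13. MMP1 was the only one of the 9 above 1 CPM. MMP13 had 0 and 2 counts, and the other 6 were at 0 in both libraries, including MMP10, the MMP gene next to MMP1. For a gene at 0 the floor was set at 3 counts, worth 0.540 CPM for control and 0.0849 CPM for CCE; the exact two-sided interval of a count of 0 ends higher, at 0.663 and 0.104 CPM. WTAPP1, a pseudogene on the opposite strand that shares 223 exon bases with MMP1 and 32 with MMP3, had 6 and 35 counts.

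Of all 23 MMP genes listed, 8 were measured and 10 were at 0 in both libraries, the gelatinase genes MMP2 and MMP9 among the latter. The 8 had a median of 0.19, with 5 ratios above 0, where 54.4% of measured protein-coding genes were. MMP24, which encodes a membrane-type MMP, was at least 2-fold higher, with 229 and 3103 counts (2.13-fold, log2 ratio 1.09, 0.90 to 1.29). It shares 806 exon bases, 18.4% of its exon length, with MMP24OS on the opposite strand, which had 633 and 6581 counts and a log2 ratio of 0.71. MMP24 was listed at 0 FPKM in both libraries.

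The ratios of the other 5 measured MMPs each had an interval that included 0. MMP17 had 0.98 (-0.21 to 2.47) and MMP19 0.88 (-0.32 to 2.37), both from 6 control counts; MMP19 shares 17.6% of its exon length with TMEM198B on the opposite strand (log2 ratio 1.37). MMP16 had 0.24 (-0.44 to 0.99), MMP11 0.14 (-0.94 to 1.42) and MMP15 0.00 (-0.43 to 0.45).

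The inhibitors differed in direction. TIMP2 was lower, TIMP3 higher and TIMP1 nearly level in the CCE library. TIMP1 (ENSG00000102265; chromosome X, 47441807 to 47446188, plus strand), a secreted inhibitor whose gene lies within SYN1 on the opposite strand and shares no exon bases with it, had 2398 and 16576 counts. Its level was 431 CPM (414 to 449) and 469 CPM (462 to 476), 1.09-fold higher (log2 ratio 0.12, 0.06 to 0.18). By FPKM, which was not rescaled between the libraries, the sign turned: 355 and 350, or -0.021 on the log2(FPKM + 1) scale. SYN1 was listed with 5 and 2 counts.

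TIMP2 (ENSG00000035862; chromosome 17, 76849059 to 76921469, minus strand) had 2859 and 11690 counts, the most counts of the 9 genes in the control library. Its control level was 514 CPM (495 to 533) and its CCE level 331 CPM (325 to 337), 1.55 times lower (log2 ratio -0.64, -0.70 to -0.58). The FPKM values, 113 and 68.4, gave -0.72. A noncoding gene on the opposite strand shares 5.91% of its exon length and had a log2 ratio of -0.47.

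TIMP3 (ENSG00000100234; chromosome 22, 33197691 to 33259028, plus strand), which binds to the matrix and also inhibits ADAM17, had 589 and 4802 counts. Its control level was 106 CPM (97.5 to 115) and its CCE level 136 CPM (132 to 140), 1.28-fold higher (1.18 to 1.40; log2 ratio 0.36, 0.24 to 0.48). By FPKM it was 21.1 and 22.5, a difference of 0.09. TIMP3 lies within SYN3, on the opposite strand, which was at 0 counts in both libraries.

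The fourth inhibitor gene, TIMP4, was scarce, with 19 and 43 counts, and 2.81 times lower (-1.49, -2.30 to -0.63). It shares 14.2% of its exon length with SYN2 on the opposite strand, which had 6 and 12 counts.

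Set in order of log2 ratio, the 8 measured genes ran PLAU, PLAT, TIMP2, MMP1, PLAUR, MMP14, TIMP1 and TIMP3, from -1.07 to 0.36. Neighbours whose counting intervals overlap are PLAU with PLAT, TIMP2 with MMP1, and PLAUR with MMP14. All other neighbours in the order have intervals that do not overlap.

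Levels of different genes can be compared only per length. Per kilobase of annotated exon, the control library had TIMP1 at 298 CPM, PLAU at 126, TIMP2 at 82.8, PLAUR at 56.6, MMP14 at 38.0, PLAT at 25.6, TIMP3 at 23.0, MMP1 at 8.67 and MMP3 at 0.291. In the CCE library TIMP1 stood at 324 CPM per kilobase, PLAU at 60.0, TIMP2 at 53.3, PLAUR at 51.7, MMP14 at 36.3, TIMP3 at 29.6, PLAT at 12.6, MMP1 at 5.63 and MMP3 at 0.504. TIMP1 thus led in both, and PLAU, TIMP2 and PLAUR, which spanned 126 to 56.6 for control, spanned 60.0 to 51.7 for CCE. That narrowing depends on the measure. By FPKM, PLAU, TIMP2 and PLAUR had 108, 113 and 134 for control and 54.0, 68.4 and 56.5 for CCE. PLAU was the lowest of them in both libraries by FPKM. Per kilobase of exon TIMP3 passed PLAT, but by FPKM PLAT stayed above it (24.1 and 22.5 for CCE). Among measured protein-coding genes TIMP1 lay at percentile 99.2 for control and 99.3 for CCE, and PLAT at 85.3 and 71.2. The exon length of PLAT joins all annotated transcripts (7770 bases), which lowers its value per kilobase; by FPKM, PLAT stood above MMP14 in the control library (56.4 and 40.1) and below it in the CCE library (24.1 and 35.0).

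Ratios between pairs of these genes within each library need no scaling between libraries. MMP14 stood at 0.459 of the TIMP2 level per kilobase for control and 0.682 for CCE, 1.49-fold higher (1.37 to 1.61). Against TIMP3 the same enzyme went the other way, from 1.65 to 1.23, or 0.745 of the control ratio (0.667 to 0.832). TIMP3 relative to TIMP2 was 1.99-fold higher in the CCE library (1.81 to 2.20), from 0.278 to 0.555. MMP1 relative to TIMP1 was 1.67 times lower (1.37 to 2.04). By FPKM, PLAU:PLAUR alone of the 8 pairs plotted went the opposite way.

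**Figure D3:**
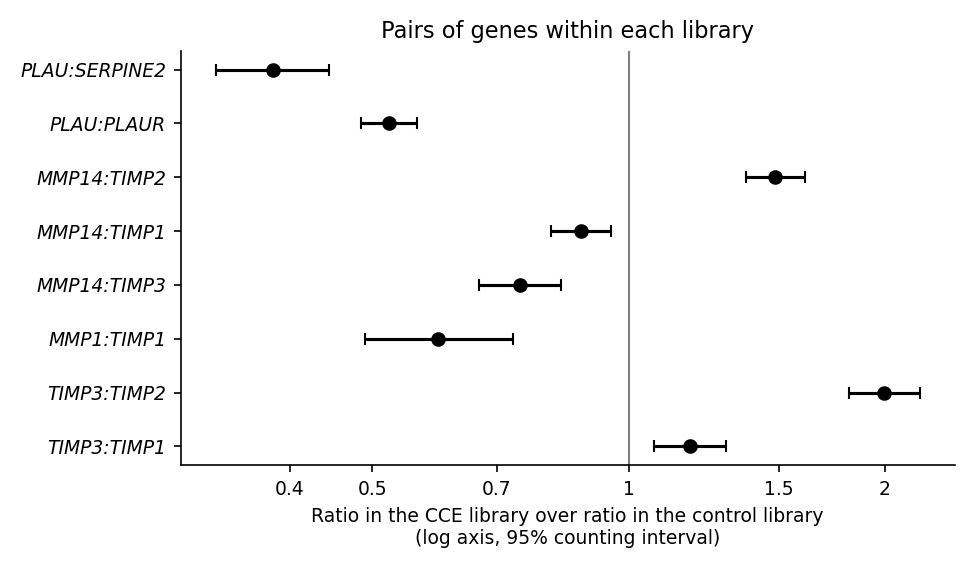
For 8 pairs of genes, the ratio of the first to the second in the CCE library divided by the same ratio in the control library, on a log axis with exact 95% counting intervals. TIMP3:TIMP2, MMP14:TIMP2 and TIMP3:TIMP1 lie above 1, and PLAU:SERPINE2 and PLAU:PLAUR lie lowest; these are ratios of counts, and by FPKM PLAU:PLAUR is higher for CCE (0.956) than for control (0.810).

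The authors' FPKM rows, 1 per transcript, put most of each gene's signal in a single row, the same one in both libraries for each of the 8 genes above 0 FPKM. That row held 98.1% and 100% of the FPKM of PLAU, 98.5% and 93.9% of TIMP2 and 87.1% and 92.0% of PLAT. PLAUR was spread over 13 rows above 0, and its leading row held 75.7% and 73.5%, at 101 and 41.5 FPKM. The rows carry no transcript names, so the isoform is not given. Over the 11637 measured protein-coding genes, ratios from counts and from log2(FPKM + 1) had a Spearman rho of 0.331, across genes that are not independent replicates. Of the 82 measured genes in the lists beside the members, 22 had the opposite sign by FPKM and 12 had no difference by FPKM. No such share is given here for all measured protein-coding genes, so these numbers describe the listed genes only.

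Other regulators of these enzymes were read from lists. Of 15 activators and membrane regulators of MMPs, 10 were measured, with 8 ratios below 0, 2 at least 2-fold lower, 0 higher and a median of -0.29. Of measured protein-coding genes, 45.6% had ratios below 0, 4.33% were at least 2-fold lower and 3.26% higher, with a median of 0.05. TFPI2, a secreted inhibitor of plasmin and other serine proteases, was 2.61 times lower (log2 ratio -1.38, -1.54 to -1.23), and CAV1, of caveolae, 2.15 times lower. BSG, which encodes the MMP inducer EMMPRIN, had -0.35, CD151 -0.27 and LGALS3 -0.02. FURIN, the convertase that activates the MT1-MMP precursor, had 0.59 (0.40 to 0.78), and RECK, a membrane inhibitor of MMPs, had -0.54 (-0.96 to -0.11) by counts and 1.17 by log2(FPKM + 1); both were picked for mention after their values were seen.

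Of 11 ADAM genes, 7 were measured, with 1 at least 2-fold lower and 0 higher (median -0.32). Over measured protein-coding genes, 4.33% were at least 2-fold lower and 3.26% higher, with a median of 0.05. ADAM8 had 921 and 2615 counts and was 2.24 times lower (-1.16, -1.27 to -1.05), but was higher by FPKM (0.92). ADAM9 had 0.07 and ADAM15 -0.32. ADAM17, a sheddase that TIMP3 inhibits and named after its value was seen, had 365 and 4562 counts and was 1.97-fold higher (0.98, 0.82 to 1.13). Of 18 ADAMTS genes, 8 were measured, with a median of -0.38; ADAMTS6, with 20 and 42 counts, was lower at -1.60 (-2.40 to -0.75). By the mean of both libraries per kilobase, the most abundant were ADAMTS12 at -0.17, ADAMTS15 at -0.54 and ADAMTS1 at 0.58, the last at -1.10 by log2(FPKM + 1).

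AP-1 and ETS factors are known to drive PLAU, PLAUR and MMP1 in many cells. Of 19 listed, 15 were measured, 11 with a ratio below 0, 0 at least 2-fold lower or higher, and a median of -0.12. For comparison, 45.6% of all measured protein-coding genes fell below 0, and their median was 0.05. At the 2-fold threshold, 4.33% of those genes were called lower and 3.26% higher. FOSL1, the most abundant of the listed factors, had 2372 and 12455 counts and a log2 ratio of -0.28 (-0.34 to -0.21). JUND had -0.65 (-0.80 to -0.50) and ELK3 -0.33 (-0.43 to -0.24). The list was not linked to the members by any measurement here.

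**Figure D4:**
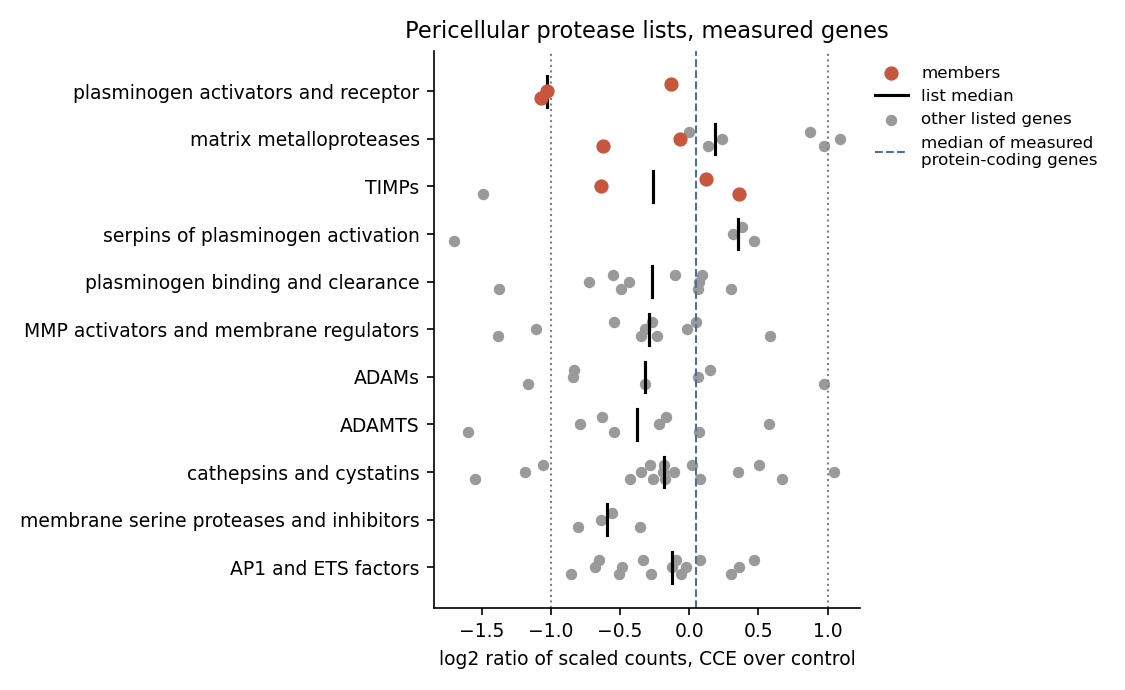
Log2 ratio (CCE over control, scaled counts) for every measured gene of 11 lists of pericellular proteases and their regulators; red points are the measured ones of the 9 genes, grey points other listed genes, black bars the list medians, dotted lines 2-fold, and the dashed line the median of measured protein-coding genes. The activators PLAU and PLAT lie at the 2-fold line, and the TIMP list is spread from -1.49 to 0.36.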

How the data were processed

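The authors deposited raw counts per Ensembl gene, and FPKM values in 215170 rows that repeat gene IDs. HISAT2, hg19 and GRCh37 are the names given per the submitters' processing notes; the sources used here give no counting program, strand setting, annotation release or FPKM program. The 5 rows of each count table that name no gene (62.9% and 66.8% of records) were left out. Symbols and positions came from GENCODE release 44 on GRCh37 (55665 IDs found). Libraries were scaled with TMM factors (edgeR 4.0.16, R 4.3.3; 0.987 control, 1.01 CCE); edgeR and DESeq2 (1.42.0) served only for scaling. Log2 ratios took no pseudocount, with exact Clopper-Pearson intervals (scipy 1.17.1); levels have exact Poisson intervals, and pair ratios exact conditional ones. They cover counting error only, as PCR copies are not independent molecules. FPKM rows were summed per gene, and their depth is unknown. Summed over genes, FPKM came to 375876 for control and 270236 for CCE, 0.719 of control. FPKM values were compared as given, without rescaling to a common sum. Over measured protein-coding genes the median log2(FPKM + 1) ratio was -0.03. The procedure was run on simulated Poisson counts with set fold changes. These hold no spread between cultures and no PCR copies, so the run does not bear on either error.

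Named genes were the 9 members, every measured MMP, TIMP and activator serpin, in other lists those called 2-fold and up to 3 most abundant per kilobase, overlapping genes and the chromosome 11 cluster; exceptions are marked, and some genes that meet the rule are not reported here. Members and lists were chosen with earlier results of these data known. Alternatives were 3 scalings, 3 FPKM readings, log2(CPM + 1), GC content, filters and thresholds.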

Additional observations from a re-analysis of the deposited data

How the results depend on the processing

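No member was at least 2-fold higher under any alternative run. The 2 members at least 2-fold lower became 1 with total counts (PLAT left), 4 by FPKM with a pseudocount of 0.1, 4 at a 1.5-fold threshold and 0 when the whole counting interval had to pass 2-fold. By FPKM with a pseudocount of 1 the number was again 2, but these were PLAUR and PLAT. Of the 11637 measured protein-coding genes, 504 were lower in the main run. By FPKM 1702 were lower with a pseudocount of 1 and 2201 with 0.1, so the member counts by FPKM stand beside a larger background. At 1.5-fold 1264 were lower, and 169 with the whole interval past 2-fold. The median kept its sign, from -0.87 by FPKM with a pseudocount of 0.1 to -0.13 with no filter, where MMP3 enters. TIMP1 turned negative by FPKM, to -0.021 with either pseudocount on the sum and -0.038 on the leading row; the cause was not tested. The 3 other scalings moved a member's log2 ratio by at most 0.04. Protein-coding genes with higher GC content had lower ratios, with bin medians from 0.19 in the lowest of 10 GC bins to -0.20 in the highest; taking out the median of its bin moved a member by at most 0.11.

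Protein-coding genes at least 2-fold higher and lower numbered 379 and 504. They were 1699 and 1702 by FPKM with a pseudocount of 1, 2481 and 2201 with 0.1, and 2006 and 2212 by the leading row. They were 239 and 318 on the log2(CPM + 1) scale, 217 and 286 at a mean of 5 CPM, 1334 and 1264 at 1.5-fold, and 60 and 169 with the whole interval past 2-fold. The control library, 6.19-fold shallower, sets the precision of every ratio. No paired analysis was possible because each group has 1 library.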

Other observations

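Other extracellular and lysosomal proteases went in both directions. Of 20 cathepsin and cystatin genes, 17 were measured, with 11 ratios below 0 and 6 above, 3 at least 2-fold lower, 1 higher and a median of -0.18. Over measured protein-coding genes, 45.6% of ratios were below 0, 4.33% at least 2-fold lower and 3.26% higher, with a median of 0.05. The cysteine cathepsin gene CTSS had 166 and 361 counts (log2 ratio -1.55, -1.82 to -1.27), CTSW -1.19 (-1.81 to -0.52) and CTSV -1.05 (-1.64 to -0.43), the last above 0 by FPKM. Among those above 0, the lysosomal protease gene CTSL, named after its value was seen, had 1178 and 10600 counts and 0.50 (0.41 to 0.59), but -0.37 by log2(FPKM + 1). CST1, which encodes a secreted cysteine protease inhibitor, was 2.06-fold higher (1.05, 0.73 to 1.37); it has close paralogs, CST4 among them (0.08), so its count is uncertain. The abundant genes CTSD, CST3 and CSTB had -0.19, -0.17 and 0.36, the last at -4.96 by log2(FPKM + 1). Of 12 membrane or secreted serine proteases and their inhibitors, 4 were measured. All 4 had ratios below 0, where 45.6% of measured protein-coding genes did. PRSS23 had -0.64 and shares 12.2% of its exon length with FZD4 on the opposite strand, at -0.96. HTRA1 had -0.55 and SPINT2 -0.35.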
